A study of Mus musculus with 12 samples.

Results

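The comparison set skeletal muscle of Stat5a and Stat5b knockout mice against muscle of wild-type mice, when both had been given growth hormone (GH). The series has 12 arrays in 4 groups of 3 mice, and the 6 arrays chosen here are those whose source is labelled KO+GH (3) or WT+GH (3). The other 6, labelled KO and WT, had no GH and served to test whether a difference with GH departed from that without. Every non-control probe set of the Affymetrix mouse array was read, 45037 of 45101. The submitters' text speaks of a loss of both genes in blood cells, while the series title is about skeletal muscle. The labels give no dose or time of GH, no age, sex or strain, and no Cre driver. They do not say whether mice without GH received a vehicle. Each title carries its own animal number, and p-values below measure the spread between these arrays.

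GH binds its receptor and activates the kinase JAK2, which phosphorylates STAT5A and STAT5B. These transcription factors then bind paired half-sites of the form TTCNNNGAA and switch on genes such as Socs2, Cish and Igf1. The same receptor also activates STAT3 and the MAP kinase ERK, whose targets are immediate early genes such as Egr1 and Fos. SOCS proteins and CISH shut the receptor down again.

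The 250 bases upstream of the start site are shown for genes that changed here and have a promoter in the RefSeq table (GRCm38.p6). Nab2, Atf3, Btg2 and Dusp5 are immediate early or ERK-feedback genes that were higher in the knockout, while Cish and Bcl6 are STAT5 target genes that were lower. Capitals mark motif matches on either strand: TTCNNNGAA (STAT), TGACGTCA (CRE), TGANTCA (AP-1), GCGTGGGCG or GCGGGGGCG (EGR), CACGTG (E-box) and the serum response CArG box, by name. The Dusp5 window lies at chr19:53528895-53529144, plus strand, and carries 2 adjoining CArG boxes, at -82 to -73 and -72 to -63 from the start site. The Btg2 window lies at chr1:134079156-134079405, minus strand, and carries a CRE at -166 to -159. The Nab2 window (chr10:127666704-127666953, minus strand), the Atf3 window (chr1:191183334-191183583, minus strand) and the Cish window (chr9:107296409-107296658, plus strand) held none of these letters. Bcl6 has 2 windows. The first (chr16:23988853-23989102, minus strand) holds a STAT match at -118 to -110 and an E-box at -60 to -55, and the second (chr16:23981284-23981533, minus strand) holds 3 STAT matches, starting at -168, -122 and -88.
Dusp5: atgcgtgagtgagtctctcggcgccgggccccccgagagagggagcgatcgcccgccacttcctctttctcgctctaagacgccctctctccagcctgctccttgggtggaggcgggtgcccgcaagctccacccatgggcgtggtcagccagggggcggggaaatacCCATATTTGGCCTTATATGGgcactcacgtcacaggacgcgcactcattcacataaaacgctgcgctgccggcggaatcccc
Nab2: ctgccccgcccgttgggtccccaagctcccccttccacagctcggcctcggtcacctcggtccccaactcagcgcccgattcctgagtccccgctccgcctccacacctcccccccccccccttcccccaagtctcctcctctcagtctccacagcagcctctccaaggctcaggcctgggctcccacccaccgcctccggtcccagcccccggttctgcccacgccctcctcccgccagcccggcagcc
Atf3: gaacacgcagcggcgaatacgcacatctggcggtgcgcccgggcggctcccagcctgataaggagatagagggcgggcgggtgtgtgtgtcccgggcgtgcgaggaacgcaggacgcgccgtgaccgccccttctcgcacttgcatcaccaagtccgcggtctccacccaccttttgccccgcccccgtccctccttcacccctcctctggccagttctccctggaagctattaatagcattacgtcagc
Btg2: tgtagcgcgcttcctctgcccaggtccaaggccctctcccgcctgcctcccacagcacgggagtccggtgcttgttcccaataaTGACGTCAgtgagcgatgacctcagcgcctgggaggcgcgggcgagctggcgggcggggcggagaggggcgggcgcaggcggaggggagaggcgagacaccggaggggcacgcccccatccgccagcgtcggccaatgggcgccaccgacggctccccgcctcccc
Cish: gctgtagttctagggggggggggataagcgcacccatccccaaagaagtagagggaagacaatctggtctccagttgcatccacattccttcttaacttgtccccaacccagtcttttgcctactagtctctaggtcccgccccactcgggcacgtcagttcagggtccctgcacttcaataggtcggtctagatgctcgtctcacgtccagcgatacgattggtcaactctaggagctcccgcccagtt
Bcl6, first window: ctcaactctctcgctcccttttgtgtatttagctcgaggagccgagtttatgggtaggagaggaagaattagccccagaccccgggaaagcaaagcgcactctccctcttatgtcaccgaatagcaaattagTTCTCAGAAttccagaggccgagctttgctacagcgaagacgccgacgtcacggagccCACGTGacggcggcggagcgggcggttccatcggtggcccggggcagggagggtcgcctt
Bcl6, second window: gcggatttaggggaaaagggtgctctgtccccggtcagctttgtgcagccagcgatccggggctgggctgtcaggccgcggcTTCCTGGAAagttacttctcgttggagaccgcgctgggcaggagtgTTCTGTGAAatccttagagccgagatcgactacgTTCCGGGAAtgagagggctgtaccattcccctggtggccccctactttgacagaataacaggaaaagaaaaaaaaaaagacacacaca

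The letters TTCNNNGAA stood in 7.02% of all 32851 upstream windows of this length, in 5.85% of the windows of genes tested, in 6.12% of the 98 windows of genes at least 2-fold higher in the knockout, and in 7.27% of the 55 windows of genes at least 2-fold lower. The EGR letters stood in 3.06% of all windows, in 5.69% of the windows of genes tested, in 12.2% of those of the higher genes and in 3.64% of those of the lower genes. The E-box stood in 6.02%, 8.08%, 14.3% and 3.64%, the AP-1 letters in 6.75%, 4.78%, 8.16% and 3.64%, the CRE in 1.55%, 2.4%, 1.02% and 3.64%, and the CArG box in 1.47%, 1.21%, 1.02% and 1.82%, in the same order. Of the 24 genes with the largest changes, 15 have a window in the table. A match is a run of letters and no measured binding.

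Array signals were MAS5 values scaled to the same trimmed mean, 500 on every array. A gene was read by its brightest probe set, as log2 of the signal plus 25, and called when its adjusted p in limma was under 0.05. In that model, 576 of 12548 genes tested (4.59%) were higher in the knockout with GH and 622 (4.96%) were lower, 9.55% in all. Over all 27022 probe sets tested, 1195 (4.42%) were higher and 1299 (4.81%) lower. These are the genes said below to have risen or fallen. Of them, 95 rose and 58 fell at least 2-fold, 15 and 7 at least 4-fold, and 4 and 3 at least 8-fold. All called genes had groups that did not overlap, but so did 13.9% of all genes in the higher direction and 16.4% in the lower. The constant of 25 makes folds of dim genes too small. List counts below stand against the 4.59% and 4.96% of all genes, and a single rise or fall lies near these shares in many lists.

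**Figure D1:**
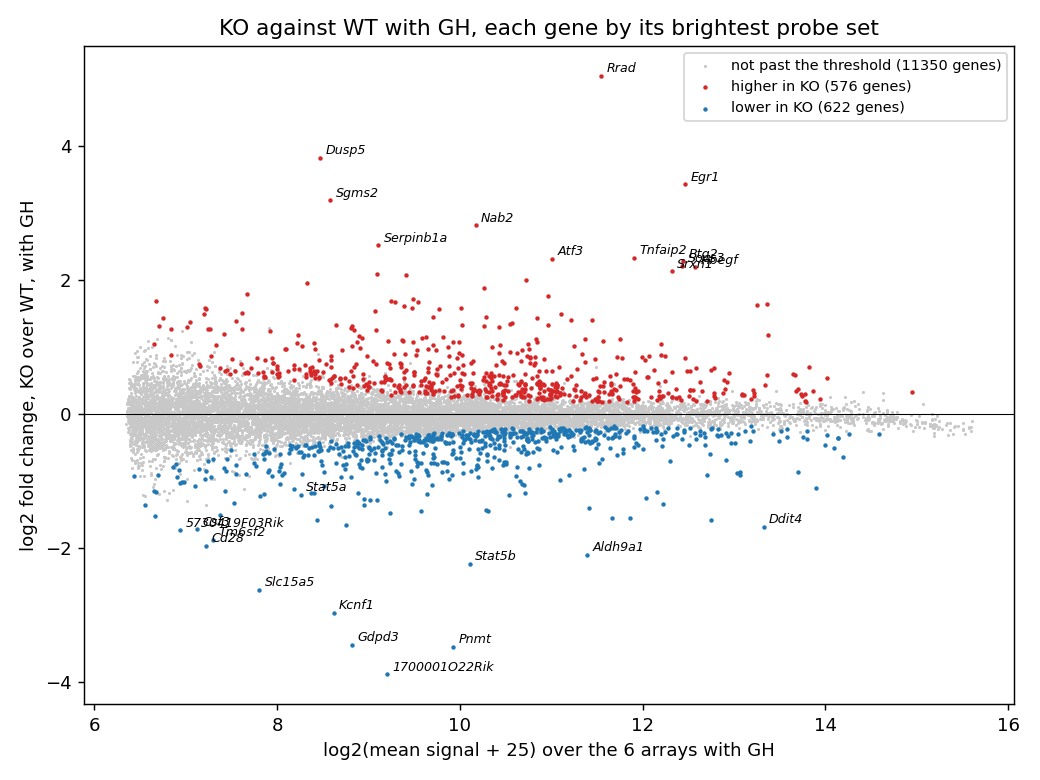
Level of each gene tested on the x axis (log2 of mean signal plus 25, over the 6 arrays with GH) against the log2 fold change, knockout over wild type, on the y axis; red points rose, blue points fell and grey points did not pass. The changes of at least 4-fold are 15 rises and 7 falls, with Rrad at the top and 1700001O22Rik at the bottom.

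The arrays within a group correlated at 0.979 to 0.987 and those of different groups at 0.970 to 0.976 (Pearson's r across probe sets, a description). The median SD of a probe set was 0.12 log2 units among knockout arrays and 0.155 among wild-type arrays with GH, against 0.191 and 0.195 in the groups without GH. The 3′ to 5′ signal ratio of the actin control was 0.962 to 1.007 in the knockout and 0.887 to 0.932 in the wild type, without overlap (exact permutation test, two-sided p = 0.1, the smallest that 3 against 3 arrays allow; adjusted over 5 measures 0.167). The same ratio of the Gapdh control went the other way, 0.795 to 0.830 in the knockout and 0.842 to 0.860 in the wild type, and the hybridization controls gave 5323 to 5570 and 5576 to 5959, both without overlap and with the same exact and adjusted p. With the actin ratio as a covariate only 93 genes rose and 55 fell, and with all 12 arrays in the fit 295 rose and 247 fell. Since that ratio does not overlap between the genotypes, the covariate is hard to separate from genotype. Ifit1 went from -1.04 ± 0.161 (log2 difference ± SE) to -1.16 ± 0.367 with it, and Ptpn2 from 1.09 ± 0.172 to 0.50 ± 0.325. A call lost with the covariate can thus reflect a larger SE, a smaller difference or both. Without knockout array 2 the counts were 376 and 363, and without knockout array 1 or 3 they were 385 and 387 or 380 and 376. The part of RNA quality in the calls was not tested. Wild-type array 1 had brighter abundant muscle genes: the signals of 16 fast fibre genes summed to 825627 there and to 595922 and 656426 in the other wild-type arrays. The muscle identity of all arrays was plain, since 10 muscle fibre markers had a median signal of 41200, at the 99.9th percentile of genes, while 8 of 9 lymphocyte markers were below the filter of 56.2.

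The targeted genes were lower in every knockout array. Stat5b gave signals of 333, 378 and 374 in KO and 1694, 1792 and 1896 in WT arrays, in array order; KO and WT below are the groups with GH unless said otherwise. The groups were far apart, and the fall was 2.23 ± 0.0817 on the log2 scale (estimate ± SE, 3 arrays per group; adjusted p = 1.42e-07). Below, a value with ± is such a log2 difference with its SE, and a single number after it or after a fold is limma's adjusted p. Stat5a gave 196, 129 and 159 in KO and 384, 436 and 385 in WT, and fell by 1.21 ± 0.151 (adjusted p = 0.000668). With the actin ratio as a covariate, Stat5a had an adjusted p of 0.103. The knockout kept 20.2% of the wild-type Stat5b signal and 40.2% of that of Stat5a, with no background subtracted beyond the authors' own. The labels do not say which exons were deleted, so a probe outside them would not report the loss. In a whole muscle, fewer cells of a type and less RNA per cell cannot be told apart.

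Of 25 genes of GH signalling that were tested, 4 rose and 4 fell, with 17 short of the threshold (median log2 fold change 0.00, against -0.02 over all genes). Neither the receptor nor its kinase passed: Ghr, the GH receptor, gave 7685, 7453 and 7476 in KO and 7716, 6831 and 7215 in WT (log2 difference 0.06 ± 0.0577, adjusted p = 0.615), and Jak2 gave 998, 1057 and 1164 in KO and 930.4, 988 and 980.1 in WT (0.15 ± 0.0757, 0.29). Jak1 differed by 0.11 ± 0.0508 and Tyk2, a kinase of the same family, by 0.36 ± 0.116, neither past the threshold. Among the other STATs, Stat3, which carries signals of the interleukin-6 family, gave 5369, 5640.4 and 5544 in KO and 2964, 3094 and 2984 in WT and rose by 0.87 ± 0.049 (adjusted p = 2.73e-06), though its probe sets did not move alike (-0.11 to 1.73 over its 4 probe sets tested). Stat2 (-0.20 ± 0.18) and Stat6 (0.10 ± 0.0737) did not pass.

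The feedback genes of the receptor moved apart. Cish, an SH2 protein that blocks STAT5 docking, gave 3182, 3587 and 3474 in KO and 9274, 11023 and 10684 in WT. Every knockout array was below every wild-type array, and Cish fell by 1.59 ± 0.0746 (adjusted p = 7.73e-07); fitted with all 12 arrays, Cish had an adjusted p of 0.093. Socs2, which turns over the GH receptor, gave 1022, 966 and 1024 in KO and 2211, 2316 and 2419 in WT and fell by 1.19 ± 0.0611 (1.37e-06), with -1.28 to -0.07 over its 5 probe sets tested. Socs3, the inhibitor that STAT3 induces, gave 9369.6, 8871 and 8905 in KO and 1531, 1990.5 and 2335 in WT and rose 4.65-fold, or 2.22 ± 0.121 on the log2 scale (2.16e-06). Socs1, Socs4, Socs5, Socs6 and Socs7 lay between -0.11 and 0.06 and did not pass. Of the phosphatases, Ptpn2, which acts on nuclear STATs, gave 3983, 3947 and 4226 in KO and 1316, 2296 and 2242 in WT and rose by 1.09 ± 0.172 (0.003), and Ptpn1 rose by 0.49 ± 0.0482 (0.000141). Both calls were lost with the actin covariate, where Ptpn2 had an adjusted p of 0.661 and Ptpn1 of 0.135. Ptpn6 (0.18 ± 0.16), Ptpn11 (-0.16 ± 0.0738), Pias1 (-0.14 ± 0.0759), Pias3 (0.00 ± 0.116), Sh2b1 (0.07 ± 0.0752) and Sh2b2 (-0.27 ± 0.14) did not pass.

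Of 18 genes known as STAT5 targets in some tissue, 1 rose and 6 fell, with 11 short of the threshold (median log2 fold change -0.06). Besides Cish and Socs2, the falls were the repressor Bcl6, the growth arrest gene Gadd45g, the survival gene Bcl2l1 and the polyamine enzyme Odc1. Bcl6 gave 1236, 1118 and 1056 in KO and 1941, 1988 and 2001 in WT and fell by 0.79 ± 0.0685 (5.82e-05). Gadd45g gave 3940.1, 3684 and 3815 in KO and 6553, 5644 and 6548 in WT and fell by 0.71 ± 0.0668 (0.000105; 0.0758 with the actin covariate). Bcl2l1 and Odc1 fell by 0.41 ± 0.0979 and 0.40 ± 0.0564, and both lost the call with all 12 arrays in the fit (adjusted p = 0.0725 and 0.181). Mcl1, a survival gene, rose by 0.28 ± 0.0505 with 6 arrays and had an adjusted p of 0.0716 with 12. These 3 calls were lost with the actin covariate too. Myc (0.37 ± 0.119), Pim1 (0.24 ± 0.0864), Ccnd1 (-0.22 ± 0.109), Cdkn1a (0.11 ± 0.0628), Id1 (0.15 ± 0.0738), Hif1a (0.23 ± 0.117), Bcl2 (-0.29 ± 0.137), Osm (0.37 ± 0.26), Cdkn2b (0.21 ± 0.188) and Igfals (0.21 ± 0.205) did not pass.

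Of 19 IGF and insulin signalling genes, 3 rose and 3 fell, with 13 short of the threshold. Igf1, the growth factor that GH induces, gave 1904, 2252 and 2513 in KO and 2596, 2670.5 and 3026 in WT, and all knockout arrays lay below all wild-type arrays. The difference of -0.32 ± 0.0972 did not pass (adjusted p = 0.0748). Irs1, the docking protein of the insulin and IGF1 receptors, gave 3358, 3332 and 3377 in KO and 5021, 4778 and 4695 in WT and fell by 0.52 ± 0.0493 (0.000104). Igf2 rose by 0.49 ± 0.0726 (0.00197), and the receptor Igf1r by 0.43 ± 0.0829 (0.00902). All 3 calls were lost with the actin covariate, as were those of Igfbp5 (-0.34 ± 0.0621), Grb10 (0.27 ± 0.0485) and Pik3ca (-0.30 ± 0.0563), which were also lost with 12 arrays.

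The immediate early genes held several of the largest rises. Egr1, a zinc finger factor that ERK signalling induces within minutes, gave 10488, 9689 and 10808 in KO and 853, 971 and 978 in WT, so that the lowest knockout array was about an order of magnitude above the highest wild-type array. It rose 10.8-fold (3.43 ± 0.0679 on the log2 scale, adjusted p = 7.05e-09). Nab2, the co-repressor that EGR1 induces and that binds it, gave 2019, 2053 and 1918 in KO and 224, 259 and 304 in WT and rose 7.07-fold (2.82 ± 0.104, 1.42e-07). Nab1 rose by 0.73 ± 0.066 (7.39e-05), with 0.01 to 0.73 over its 3 probe sets tested, and it lost the call with the actin covariate. In all, 3 of 6 EGR and NAB genes rose and none fell. Egr2, Egr3 and Egr4 differed by 0.63 ± 0.242, -0.04 ± 0.272 and 0.09 ± 0.219, and did not pass. These 3 values were looked up after the others were seen.

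Of 11 AP-1 genes, 7 rose and 2 fell, with 2 short of the threshold (median log2 fold change 0.81). Atf3, a stress-induced partner of JUN proteins, gave 3397, 3505 and 3323 in KO and 652, 651 and 679.6 in WT and rose 5.01-fold (2.32 ± 0.0571, 1.21e-08). Junb gave 2656, 2704 and 2686 in KO and 705, 634 and 606 in WT and rose 4.03-fold (2.01 ± 0.0689, 9.46e-08). Fos gave 952, 1109.9 and 1149 in KO and 419.6, 490.0 and 494 in WT, a rise of 1.15 ± 0.0996 (5.76e-05), and Jun gave 5313, 5236 and 5294 in KO and 2777, 3102 and 3126 in WT, a rise of 0.81 ± 0.0575 (1.34e-05). The small MAF protein Mafk rose by 0.76 ± 0.0782 and Maff fell by 0.49 ± 0.0877, a call lost with the actin covariate and with 12 arrays. Fosb, Fosl1 and Fosl2, which passed but lie outside the rule for named genes, differed by 1.50 ± 0.391, 1.27 ± 0.332 and -0.43 ± 0.0802. Of the 7 rises, those of Fosb and Fosl1 were lost under several alternatives. With the actin covariate Fosb was at -0.02 (adjusted p = 0.996) and Fosl1 at 0.29 (0.922). Both calls were also lost with no filter, with eBayes neither trended nor robust and without knockout array 1 or 2, that of Fosb without knockout array 3 and that of Fosl1 without wild-type array 1 or 3. With 12 arrays the adjusted p was 0.0648 for Fosl1 and 0.38 for Fosl2.

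Of 15 genes that dampen ERK signalling, 5 rose and 0 fell, with 10 short of the threshold (1 lower at an unadjusted p under 0.05 in limma). Dusp5, a nuclear phosphatase of ERK, gave 543, 613 and 765 in KO and 17.1, 19.7 and 28.1 in WT. Its wild-type signals were below the filter level of 56.2, and it rose 14.2-fold on the log2 scale with 25 added (3.83 ± 0.181, 7.78e-07). Dusp2 gave 912, 857 and 811 in KO and 166, 222 and 163 in WT and rose 4.27-fold (2.10 ± 0.126, 4.14e-06). Spry2, an inhibitor of receptor tyrosine kinase signalling, rose by 0.80 ± 0.079 (0.000136) and lost the call with the actin covariate, as did Spred2 (0.36 ± 0.0897) and Dusp7 (0.34 ± 0.0661), which also lost it with 12 arrays. Of 10 EGF family genes, 1 rose and 1 fell. The rise was Hbegf, a ligand of the EGF receptor, with 10042, 10221 and 9732 in KO and 2312, 2103 and 2083 in WT, 4.58-fold (2.20 ± 0.0564, 1.33e-08). The fall was Errfi1, which inhibits that receptor (-0.24 ± 0.0532, 0.0203; 0.483 with 12 arrays and 0.216 with the actin covariate).

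The KLF and NR4A factors were split, with 5 of 15 up and 4 down. Klf5, a growth-associated factor, gave 3201, 3229 and 3228 in KO and 1216, 1194 and 995 in WT and rose 2.81-fold (1.49 ± 0.0765, 1.36e-06). Klf15, which glucocorticoids induce, gave 1580.3, 1708 and 1582 in KO and 4643, 4830.0 and 4979 in WT and fell by 1.55 ± 0.0555 (1.25e-07). The orphan receptor Nr4a1 gave 5943, 5784 and 6015 in KO and 12912, 9986 and 10641 in WT and fell by 0.91 ± 0.0857 (0.000104). Klf6 rose by 0.71 ± 0.0869 and Klf10 by 0.58 ± 0.0655; Nr4a1, Klf6 and Klf10 lost the call with the actin covariate. Klf12 was 0.57 ± 0.0885 by its brightest probe set, but the values were -0.72 to 0.57 over its 4 probe sets tested. Among 24 other early genes, 4 rose and 5 fell, with 15 short of the threshold. Btg2, an antiproliferative gene, gave 9166, 9149 and 9383 in KO and 1973, 1865 and 1796 in WT and rose 4.87-fold (2.28 ± 0.0524, 7.64e-09). Gadd45a, a growth arrest gene, gave 3543, 3919.8 and 3317 in KO and 1462, 1654 and 1792 in WT and rose 2.18-fold (2.00e-05), while its relative Gadd45b fell by 0.54 ± 0.0833. The kinase gene Pim3, whose family STAT5 regulates, gave 4714, 4580.5 and 4472 in KO and 9915, 8035 and 8048 in WT and fell by 0.91 ± 0.0802 (6.53e-05). Ier2 rose by 0.59 ± 0.0965. With the actin covariate the adjusted p was 0.367 for Gadd45b, 0.113 for Pim3 and 0.246 for Ier2, so that these calls were lost, as was that of Klf12 (0.453).

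Rrad, a small GTPase of the RGK family that restrains calcium channels, was the largest rise. It gave 5850.2, 5916 and 5614 in KO and 184, 101 and 178 in WT, a 33.3-fold difference (5.06 ± 0.163, 7.41e-08). Of 15 RGK and stretch genes, 5 rose and 0 fell, with 10 short of the threshold (4 lower at an unadjusted p under 0.05 in limma). Xirp1, which binds actin at sites of muscle strain and repair, gave 14904, 16984 and 15990.0 in KO and 5237, 4969.7 and 4957 in WT and rose 3.14-fold (1.65 ± 0.061, 1.43e-07). Ankrd1, a titin-binding ankyrin repeat protein, gave 4053, 3988 and 4042 in KO and 1576, 1429 and 1516 in WT and rose 2.65-fold (1.40 ± 0.0545, 1.86e-07). Cavin4, of muscle caveolae, rose by 0.66 ± 0.0594, and Ankrd2 rose by 0.36 ± 0.0653 but had an adjusted p of 0.633 with 12 arrays. Cavin4 and Ankrd2 lost the call with the actin covariate (0.0911 and 0.104).

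Other large rises belonged to no list. Sgms2, a sphingomyelin synthase, gave 647, 685 and 667 in KO and 63.4, 41.4 and 47.7 in WT (9.17-fold, 6.54e-07). Serpinb1a, an inhibitor of neutrophil proteases, gave 912, 902 and 919.7 in KO and 140.0, 185 and 100.2 in WT (5.74-fold, 8.70e-06). Tnfaip2, a gene that tumour necrosis factor induces, gave 6322, 6466 and 6285 in KO and 1089, 1466 and 1179.9 in WT by its brightest probe set (5.06-fold, 2.14e-07), with -0.01 to 2.34 over its 3 probe sets tested. In each of these genes the lowest knockout array lay at least several times above the highest wild-type array.

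**Figure D2:**
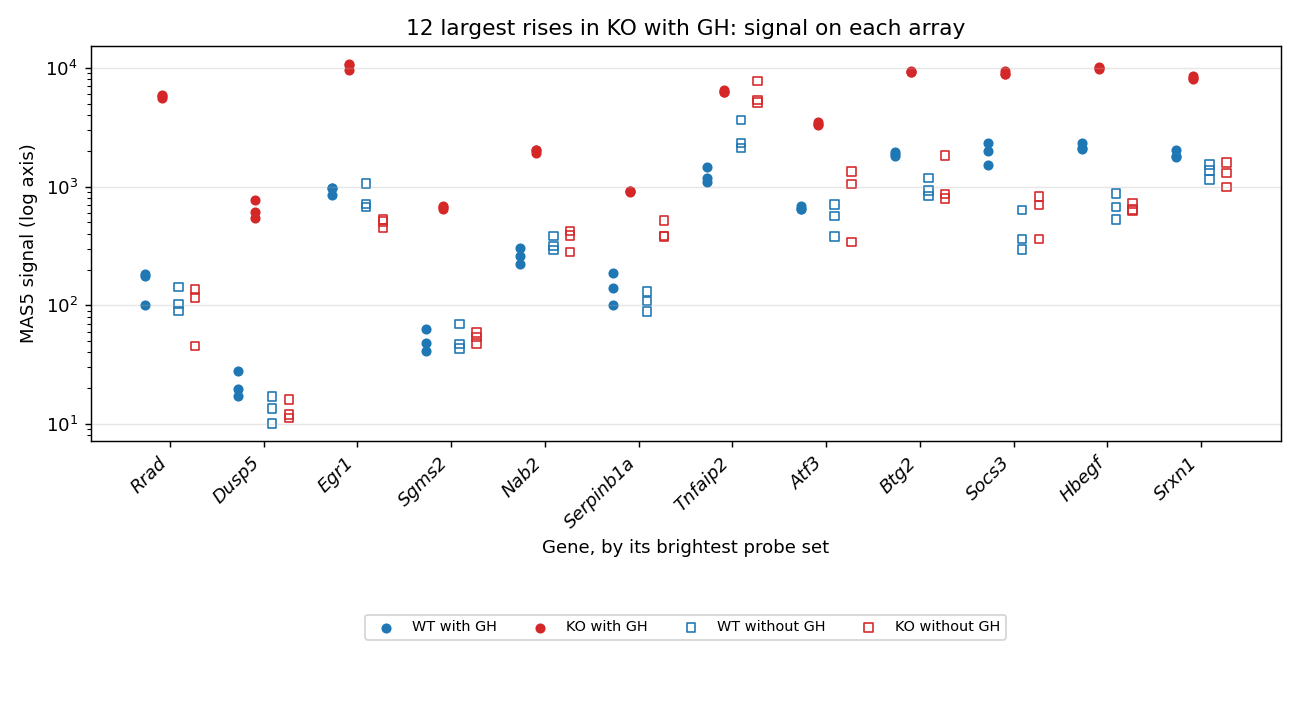
Signal on every array (log axis) for the 12 genes with the largest rises; filled circles are arrays with GH, open squares arrays without, red the knockout and blue the wild type, 1 point per array. The groups with GH are separate in all 12, with Rrad at 5614 to 5916 in the knockout and 101 to 184 in the wild type.

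Of 20 genes of STAT3 signalling and the acute phase, 4 rose and 5 fell, with 11 short of the threshold. Besides Socs3, the amyloid gene Saa3 gave 681, 822 and 802 in KO and 383, 172 and 225 in WT and rose 2.9-fold (1.54 ± 0.221, 0.00166). S100a8 and S100a9, the calprotectin subunits, went the other way: S100a9 gave 652, 654 and 607 in KO and 1155, 1117 and 1219.9 in WT and fell by 0.84 ± 0.0731 (5.78e-05), and S100a8 gave 631, 481 and 518 in KO and 986, 1027 and 947 in WT and fell by 0.84 ± 0.102 (0.000558; 0.173 with 12 arrays). Both are abundant in neutrophils, and so is Ngp, which gave 180.4, 152 and 148 in KO and 291, 314 and 319.9 in WT and fell by 0.85 ± 0.131 (0.00251). These were 3 of the 5 neutrophil markers tested, and none rose. The 8 neutrophil markers on the array summed to 1548 to 1776 in the knockout and to 2880.0 to 2929.5 in the wild type, with Elane, Camp and Cxcr2 under the filter. The part of neutrophil number in these values was not tested. The receptor Lifr fell by 0.51 ± 0.0679 and Fgl2, a fibrinogen-like protein, by 0.64 ± 0.13. Lifr lost the call with 12 arrays (0.0814) and with the actin covariate (0.25), and Fgl2 with the covariate (0.203), as did S100a8 (0.0811) and Ngp (0.132).

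Of 21 glucocorticoid-responsive genes, 2 rose and 8 fell, with 11 short of the threshold (median log2 fold change -0.12). Ddit4, an inhibitor of mTOR complex signalling, gave 4665, 4884 and 4946 in KO and 16889, 14232 and 15771 in WT and fell by 1.69 ± 0.0677 (2.37e-07). Klf15, above, Sgk1 and Foxo1 fell with it. Sgk1, a serum- and glucocorticoid-induced kinase, gave 8977, 9378 and 9715 in KO and 15184, 17742 and 18577 in WT (-0.87 ± 0.0769, 6.53e-05). Foxo1, a factor that switches on atrophy genes, gave 1969.6, 1867 and 1817 in KO and 3461, 3233 and 3307 in WT (-0.81 ± 0.0554, 1.01e-05). The receptor gene Nr3c1 gave 2399.6, 2456 and 2489.9 in KO and 3251, 3364 and 3388 in WT and fell by 0.44 ± 0.0492 (0.00031; 0.0651 with 12 arrays). Pdk4, a kinase that spares glucose, fell by 0.37 ± 0.0532 and had an adjusted p of 0.356 with 12 arrays. The metallothionein Mt2, which glucocorticoids also induce, rose by 0.33 ± 0.072 (0.705 with 12 arrays). Nr3c1, Pdk4 and Mt2 also lost the call with the actin covariate.

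Of 22 genes of FOXO, proteolysis and autophagy, 2 rose and 5 fell, with 15 short of the threshold, and the pair of muscle ubiquitin ligases moved in opposite directions. Fbxo32 (atrogin-1) gave 2499.9, 2479 and 2408 in KO and 6328, 5510.3 and 5880.1 in WT and fell by 1.25 ± 0.0593 (7.78e-07). Trim63 (MuRF1) gave 18935, 20533 and 19479 in KO and 13779, 13113 and 13570.1 in WT and rose by 0.54 ± 0.0555 (0.000173; 0.0727 with the actin covariate). Ulk1, the kinase that starts autophagy, gave 1120.1, 1148 and 1171 in KO and 1737, 1599.6 and 1687 in WT and fell by 0.54 ± 0.0606 (0.000341). Bnip3, which marks mitochondria for autophagy, fell by 0.32 ± 0.0588, and Eif4ebp1, the translation inhibitor that mTOR phosphorylates, rose by 0.35 ± 0.047. Ulk1, Bnip3 and Eif4ebp1 lost the call with the actin covariate, and Eif4ebp1 also with 12 arrays (0.13).

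Of 32 genes of fatty acid oxidation and its regulators, 1 rose and 6 fell, with 25 short of the threshold. Ucp3, a mitochondrial carrier that rises in fasting, gave 2734, 2838 and 2804 in KO and 6642, 6074 and 6149 in WT and fell by 1.16 ± 0.0532 (6.44e-07). Ppara, the receptor that fatty acids activate, gave 626, 640.0 and 571 in KO and 1293, 1208 and 1184 in WT and fell by 0.98 ± 0.0764 (2.70e-05). The coactivator Ppargc1a gave 730.0, 659 and 599 in KO and 913, 1225 and 1184 in WT and fell by 0.71 ± 0.117 (0.00386; 0.154 with 12 arrays), while Ppargc1b rose by 0.60 ± 0.0718 (0.000495; 0.21 with the actin covariate). Angptl4, an inhibitor of lipoprotein lipase, fell by 0.32 ± 0.0562, but had an adjusted p of 0.471 with 12 arrays and of 0.505 with the actin covariate. Most genes of the pathway did not pass. Of 18 lipid synthesis genes, 2 rose and 4 fell, with 12 short of the threshold. The desaturase Scd1 gave 14460.3, 14559 and 14569.5 in KO and 24242, 21105 and 22910.3 in WT and fell by 0.64 ± 0.0619 (0.000116). Srebf1, the factor that drives fatty acid synthesis, gave 1253, 1396 and 1390.4 in KO and 1786, 1989.8 and 2061 in WT and fell by 0.52 ± 0.073 (0.0014), and both calls were lost with the actin covariate. Acacb (-0.27 ± 0.0563) and Pnpla3 (-0.40 ± 0.0977) also fell, and Gpam (0.32 ± 0.0526) and Mlxipl (0.20 ± 0.0526) rose. None of these 4 held with 12 arrays (Acacb 0.169, Pnpla3 0.213, Gpam 0.0667, Mlxipl 0.264) or with the actin covariate.

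Of 20 glycolysis and glucose genes, 2 rose and 0 fell, with 18 short of the threshold (5 lower at an unadjusted p under 0.05 in limma). Fbp2, the muscle fructose bisphosphatase, gave 1838, 1821 and 1845 in KO and 941, 862 and 853 in WT and rose 2.05-fold (1.03 ± 0.0635, 4.92e-06). Slc2a1, a glucose transporter that many cell types use, gave 1082, 1071 and 972 in KO and 521, 473 and 569 in WT and rose 1.96-fold (0.97 ± 0.09, 9.48e-05; 0.141 with the actin covariate). None of 28 respiratory chain genes passed in limma after adjustment, and 0 had an unadjusted p under 0.05; Ndufs1 differed by -0.15 ± 0.0714 and Sdhc by 0.11 ± 0.0536.

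Of 13 slow fibre genes, 6 rose and 1 fell, with 6 short of the threshold. Tnni1, slow troponin I, gave 2151, 2067 and 2192 in KO and 1027, 1173 and 1078 in WT (0.95 ± 0.0659, 1.17e-05). Tnnc1, slow troponin C, gave 4327, 4458 and 4591 in KO and 2531, 2499 and 2410.0 in WT (0.84 ± 0.0504, 4.13e-06). Myh7, the slow myosin heavy chain, gave 3914, 4082 and 4023 in KO and 2393, 3040.2 and 2541 in WT (0.59 ± 0.0807, 0.00115). In the arrays without GH Myh7 gave 3575, 4337 and 4231 in KO and 124, 1133 and 192 in WT, and there the wild-type arrays stood far apart. The differences of Tnni1, Tnnc1 and Myh7 without GH were 3.03, 3.08 and 3.60, and their interactions had adjusted p-values of 0.288, 0.258 and 0.234. Of the 13 slow fibre genes, 1 other passed the interaction test downward and 0 passed upward. With all 12 arrays in the fit, 1 rose and 0 fell, and Tnni1, Tnnc1, Myh7, Tnnt1 and Myl2 had adjusted p-values of 0.365, 0.449, 0.716, 0.722 and 0.7. The one that held was Sln, which encodes sarcolipin, an inhibitor of the sarcoplasmic calcium pump, with 711, 612 and 529 in KO and 271, 254 and 176 in WT (1.32 ± 0.163, 0.000597; 0.162 with the actin covariate). The fall was that of the slow calcium pump Atp2a2 (-0.32 ± 0.0587), named after its value was seen because it was the only one; its adjusted p was 0.217 with 12 arrays. Myh7, Myl2 and Tnnt1 lost the call with the actin covariate as well.

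None of 16 fast fibre genes passed in limma (2 lower and 0 higher at an unadjusted p under 0.05), and the 2 named, Mylk2 (-0.24 ± 0.0687) and Tpm1 (-0.29 ± 0.127), were brightest in wild-type array 1. Of 7 embryonic and developmental sarcomere genes, 1 rose and 0 fell, with 6 short of the threshold: Mybph rose by 0.59 ± 0.0689 and had an adjusted p of 0.273 with 12 arrays. Of 19 myogenic genes, 3 rose and 0 fell, with 16 short of the threshold (1 lower at an unadjusted p under 0.05 in limma). Myod1, the master factor of the muscle lineage, gave 2330.2, 2242 and 2326 in KO and 1110.0, 1034 and 1149 in WT and rose 2.07-fold (1.05 ± 0.0611, 3.41e-06). Myf6 (MRF4), the related factor of adult fibres, gave 8376, 8564 and 9016 in KO and 5488, 5297 and 5344 in WT and rose by 0.68 ± 0.0518 (2.14e-05), and the cofactor Vgll2 rose by 0.44 ± 0.0641 (0.541 with the actin covariate). Of 13 neuromuscular junction genes, 2 rose and 2 fell, with 9 short of the threshold: Ache, acetylcholinesterase, gave 1166, 1252 and 1172 in KO and 627, 648 and 655 in WT and rose by 0.87 ± 0.0696 (3.24e-05), Gadd45a rose as above, and Dok7 (-0.71 ± 0.162) and Lrp4 (-0.60 ± 0.161), which organise the synapse, fell. Without probe sets that may bind several transcripts, Dok7 was read by another probe set and was at -0.03 (0.936). Its adjusted p was 0.792 with the actin covariate. That of Lrp4 was 0.852 with the covariate and 0.0534 with 12 arrays, and each of the 2 falls was lost in further alternatives.

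Of 17 heat shock genes, 7 rose and 0 fell, with 10 short of the threshold (1 lower at an unadjusted p under 0.05 in limma). Dnajb4 gave 9329.6, 9147 and 9973 in KO and 6350.5, 5879 and 6344 in WT and rose by 0.61 ± 0.0578 (0.000103), and Hspb8, a small heat shock protein, gave 15505, 15040.3 and 15514 in KO and 10925, 9783 and 9830.0 in WT and rose by 0.59 ± 0.0594 (0.000148). The inducible Hspa1b gave 1147, 1298 and 1220.1 in KO and 489, 536 and 588 in WT and rose by 1.15 ± 0.0882, but had an adjusted p of 0.58 with 12 arrays; Hspa1a (0.717), Hspb7 (0.48) and Bag3 (0.117) lost the call there too, and with the actin covariate. Hspa1a and Hspa1b are near-identical copies that probe sets may not separate. Of 14 oxidative stress and metal genes, 4 rose and 2 fell, with 8 short of the threshold. Srxn1, sulfiredoxin, gave 8530.3, 8107 and 8291 in KO and 2048, 1785 and 1801 in WT and rose 4.39-fold (2.13 ± 0.0623, 3.46e-08). Nfe2l2, which encodes NRF2, gave 3796, 3499.5 and 3552 in KO and 1980.0, 1989.8 and 2149 in WT and rose by 0.82 ± 0.0575 (1.29e-05), and thioredoxin reductase Txnrd1 rose by 0.65 ± 0.0609. Slc39a14, a zinc and iron importer, gave 1027, 1064 and 1069.5 in KO and 2107, 2079 and 2209 in WT and fell to 49.4% of the wild-type signal (3.27e-06), and the zinc exporter Slc30a1 fell by 0.60 ± 0.0982. Txnrd1 (0.133) and Slc30a1 (0.376) lost the call with the actin covariate.

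Of 12 amino acid transporters, 3 rose and 2 fell, with 7 short of the threshold. Slc38a2, a carrier of small neutral amino acids, gave 7278, 7001 and 7324 in KO and 3856, 4054 and 4189 in WT and rose by 0.83 ± 0.0527 (6.04e-06). Slc7a8, a carrier of large neutral ones, gave 337, 384 and 429 in KO and 999.8, 1144 and 1132 in WT and fell by 1.45 ± 0.103 (1.34e-05). Slc7a5 (0.64 ± 0.154) and Slc38a9 (0.55 ± 0.131) rose, and Slc7a2 (-0.38 ± 0.0518) fell, each without a call under all 12 arrays or with the actin covariate. Of 9 polyamine genes, 2 rose and 2 fell, with 5 short of the threshold: Azin1, which protects the enzyme that Odc1 encodes, gave 2348, 2286 and 2292 in KO and 1277, 1271 and 1241 in WT and rose by 0.86 ± 0.0532 (5.20e-06; -0.26 to 0.86 over its 3 probe sets tested), Sat1, which breaks polyamines down, rose by 0.51 ± 0.0721, and Odc1 and Smox (-0.32 ± 0.0492) fell. Of 18 ER stress and ATF4 genes, 1 rose and 1 fell, with 16 short of the threshold. These counts lie near the 4.59% and 4.96% of all genes. Chac1, which degrades glutathione, gave 5996, 5775 and 5949 in KO and 11543, 10282 and 10748 in WT and fell by 0.87 ± 0.0574 (8.04e-06). Ppp1r15a (GADD34) rose by 0.57 ± 0.0853. Sat1, Odc1, Smox and Ppp1r15a lost the call with the actin covariate, and Odc1 and Smox with 12 arrays.

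Of 18 genes of activin, myostatin and BMP signalling, 3 rose and 2 fell, with 13 short of the threshold. Nog, the BMP antagonist noggin, gave 755, 698 and 757 in KO and 310.4, 301 and 273 in WT and rose 2.38-fold (1.25 ± 0.0945, 2.09e-05). Fst, follistatin, gave 365, 316 and 346 in KO and 587, 508 and 514 in WT and fell by 0.61 ± 0.104 (0.00459; 0.0571 with 12 arrays). Smad7 (0.68 ± 0.162) and Smad3 (0.22 ± 0.0478) rose and Acvr1b (-0.26 ± 0.0636) fell. With the actin covariate Smad7 (0.253), Smad3 (0.663), Acvr1b (0.775) and Fst (0.495) lost the call, and Smad3 (0.281) and Acvr1b (0.237) also with 12 arrays. In the clock list of 17, 1 rose and 2 fell, with 14 short of the threshold: Ciart, a circadian repressor, gave 281, 278 and 317 in KO and 927, 809 and 848 in WT and fell by 1.48 ± 0.0972 (7.92e-06), Nr1d1 (REV-ERB alpha) gave 562, 756 and 625 in KO and 991, 1319.5 and 947 in WT and fell by 0.72 ± 0.138 (0.00901), and Bhlhe40 rose by 0.26 ± 0.0707. The labels give no time of day. Of 15 cell cycle genes only the inhibitor Cdkn1c passed (-0.42 ± 0.0803). Of 18 interferon genes, Irf1 rose (0.37 ± 0.0689) and Ifit1 fell (-1.04 ± 0.161), and of 21 matrix genes Thbs1 rose (0.56 ± 0.138) and Npnt (-0.89 ± 0.0909) and Col4a1 (-0.21 ± 0.0496) fell. The cell cycle and interferon counts lie near the shares of all genes, 4.59% higher and 4.96% lower. Nr1d1, Bhlhe40, Cdkn1c, Irf1, Ifit1, Thbs1, Npnt and Col4a1 lost the call with the actin covariate, and Bhlhe40, Cdkn1c, Thbs1 and Col4a1 with 12 arrays.

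**Figure D3:**
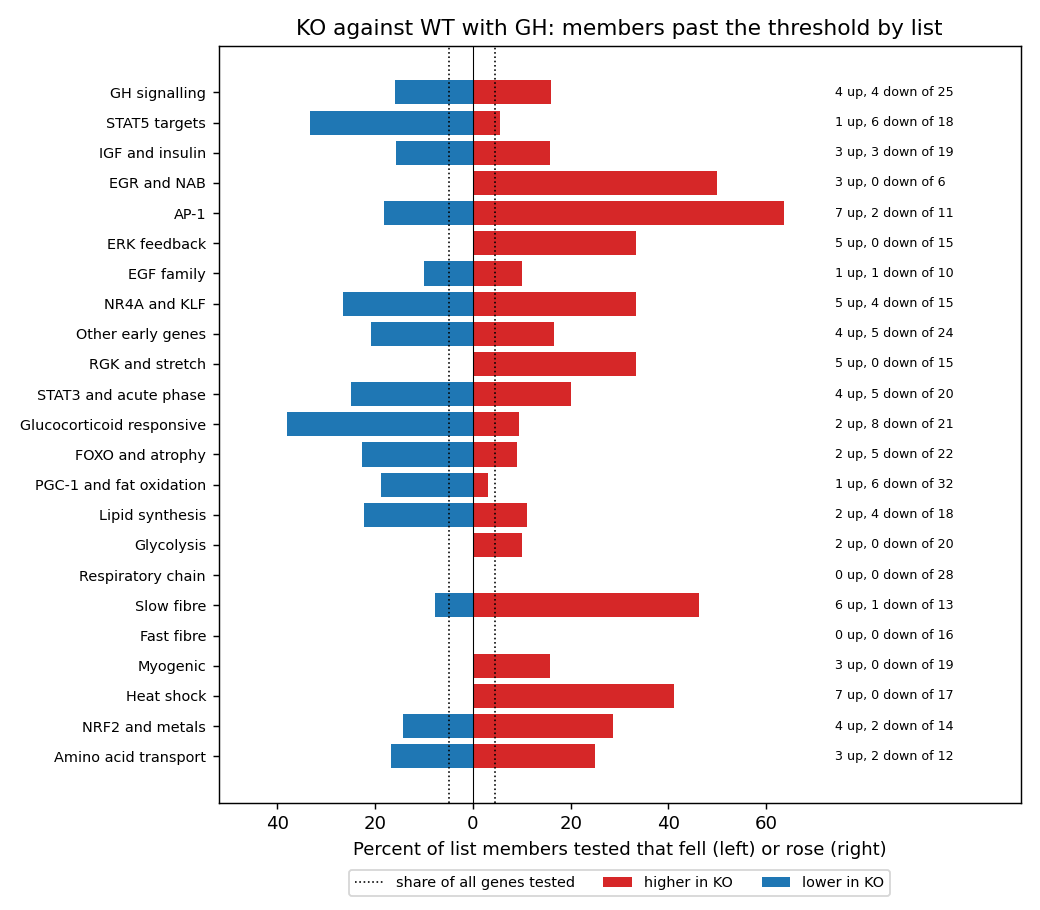
Percent of the tested genes of each list that rose (red bars, to the right) or fell (blue bars, to the left) in the knockout with GH; dotted lines mark the 4.59% and 4.96% of all genes tested. Lists of cell type markers are not plotted. Neither are the developmental sarcomere, neuromuscular junction, polyamine, activin and myostatin, cell cycle, clock, ER stress, interferon and matrix lists. Among the lists plotted, AP-1 has the longest bar to the right (7 of 11) and the glucocorticoid list the longest to the left (8 of 21), while the respiratory and fast fibre lists have none.

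Besides Stat5b and Ddit4, the 12 largest falls were of genes in none of the lists. The uncharacterised gene 1700001O22Rik gave 59.5, 36.3 and 53.9 in KO and 1123, 1092 and 1012 in WT and fell by 3.89 ± 0.145 (1.43e-07). Pnmt, the enzyme that makes adrenaline from noradrenaline and that glucocorticoids induce, gave 116, 163 and 129.9 in KO and 1920.3, 1562 and 1801 in WT and fell by 3.48 ± 0.126 (1.39e-07), with -3.48 to -0.71 over its 2 probe sets tested. Kcnf1, a silent subunit of potassium channels, gave 46, 87 and 63 in KO and 658, 665 and 689 in WT and fell by 2.97 ± 0.17 (2.96e-06). In these 3 genes the knockout arrays were at 163 or less and the wild-type arrays at 658 or more. Aldh9a1, an aldehyde dehydrogenase used in carnitine synthesis, gave 998, 844 and 1152 in KO and 4193, 4237 and 4602 in WT and fell by 2.10 ± 0.0981 (7.34e-07). Slc15a5, a peptide transporter relative, gave 65.8, 15.2 and 37.8 in KO and 311, 317 and 446 in WT (-2.63 ± 0.285, 0.000261), and Cd28, a T cell costimulator, gave 38.8, 41.1 and 27.7 in KO and 172, 249 and 219 in WT (-1.96 ± 0.214, 0.000267). Most lymphocyte markers were under the filter in these arrays. Gdpd3, a lysophospholipase, gave 104, 17.4 and 50.8 in KO and 650.5, 871 and 863 in WT (-3.45 ± 0.329, 0.000112) and had an adjusted p of 0.172 with 12 arrays; without GH, 1 knockout array stood far above the others (40.5, 32 and 2032). Tm6sf2 (-1.88 ± 0.181), Csf3, a neutrophil growth factor (-1.72 ± 0.284), and 5730419F03Rik (-1.74 ± 0.243) fell at low signal, and all lost the call with the actin covariate.

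**Figure D4:**
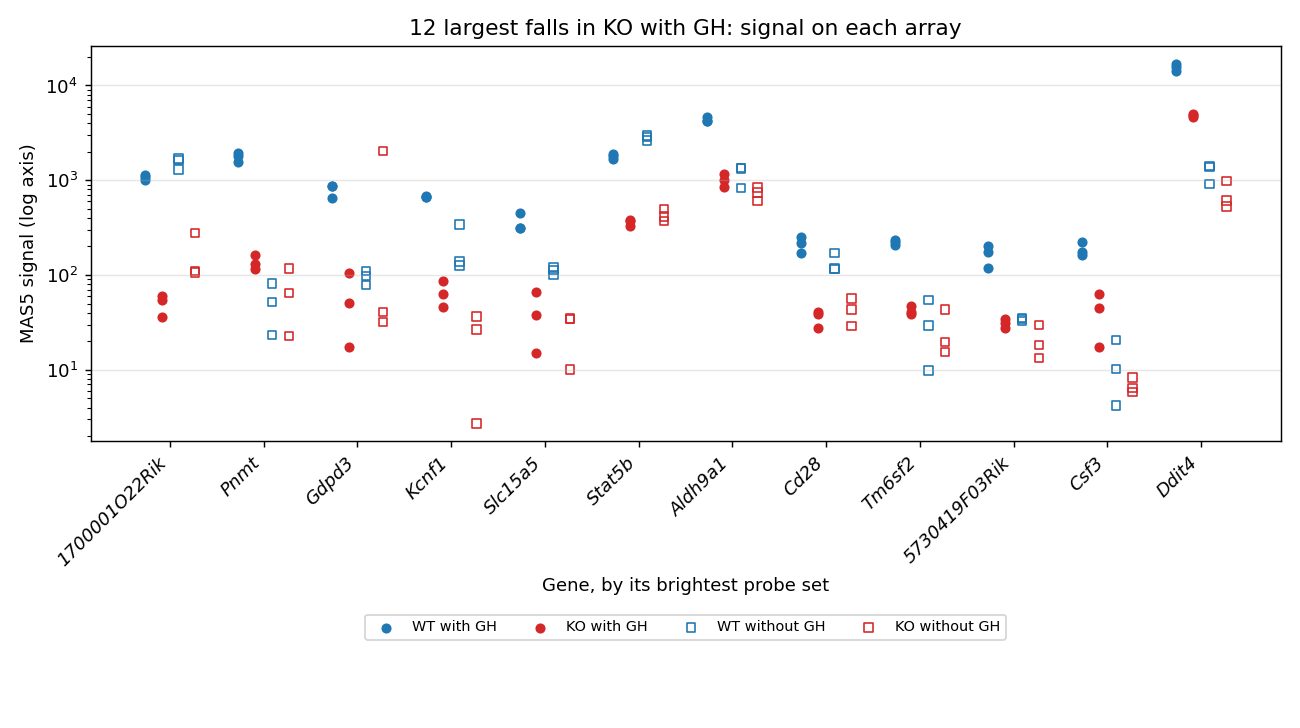
Signal on every array (log axis) for the 12 genes with the largest falls; filled circles are arrays with GH, open squares arrays without, red the knockout and blue the wild type, 1 point per array. The groups with GH are separate in all 12, with 1700001O22Rik at 36.3 to 59.5 in the knockout and 1012 to 1123 in the wild type.

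Markers of other cell types mostly did not pass. None of 11 macrophage markers passed in limma (1 higher and 2 lower at an unadjusted p under 0.05). Their log2 differences ran from -0.33 to 0.13, with a median of -0.07. Lyz2, the brightest, was at the upper end (0.13 ± 0.0535). The summed signal of the 11 was 10474 to 10629 in the knockout and 10781 to 11141 in the wild type, without overlap. Of 11 endothelial markers, 1 rose and 3 fell, with 7 short of the threshold: Kdr, a VEGF receptor, rose by 0.70 ± 0.106, and the junction gene Cldn5 gave 761, 742 and 741 in KO and 1139, 1282 and 1171 in WT and fell by 0.66 ± 0.0716 (0.000261), with Esam (-0.35 ± 0.0658) and Flt1 (-0.26 ± 0.0662). Of 7 adipocyte markers Ucp1 rose by 0.43 ± 0.0504 (0.77 with 12 arrays), of 7 smooth muscle markers Mylk rose by 0.31 ± 0.0751, of 5 Schwann cell markers Mbp by 0.22 ± 0.0542 and of 3 erythroid markers Alas2 by 0.44 ± 0.105. All 5 Schwann cell markers were higher in the knockout (0.11 to 0.63), 3 of them at an unadjusted p under 0.05 in limma. They summed to 7345 to 7538 in the knockout and to 6488 to 6747 in the wild type. Of 8 fibroblast markers Dpt fell by 0.21 ± 0.0533. Of 5 liver markers tested, Ttr (18.6, 30.7 and 33.5 in KO and 115, 145 and 117 in WT) and Apoa1 (47, 65.1 and 55.7 in KO and 128, 136 and 155 in WT) fell, both at signals of 155 or less. The adjusted p of Ttr was 0.487 with the actin covariate, and that of Apoa1 was 0.468 with it and 0.234 with 12 arrays. Kdr, Cldn5, Esam, Flt1, Ucp1, Mylk, Mbp, Alas2 and Dpt also lost the call with the covariate, and Esam, Flt1, Mylk, Mbp, Alas2 and Dpt with 12 arrays. None of the 3 keratinocyte markers, of the 10 muscle fibre markers or the 1 lymphocyte marker tested passed in limma; at an unadjusted p under 0.05 the count was 4 lower muscle fibre markers and 0 of the others. How far cell content entered the other results was not tested.

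The genotype difference with GH less that without was tested as an interaction. The arrays with GH also differed from those without in poly-A control signals, median signal and actin ratio, each without overlap. A dependence on GH and one on the set of arrays thus cannot be told apart. Of 12640 genes, 79 (0.625%) passed upward and 37 (0.293%) downward, 0.918% in all. Among the genes higher with GH, 573 could be tested and 73 passed upward and none downward; 426 had the same sign without GH. Among the genes lower with GH, 618 could be tested, 32 passed downward and 2 upward, and 449 had the same sign without GH. Both sets were chosen by the difference with GH, which is also the first term of the interaction. The directions of these counts were thus largely set by the choice of genes. The share of all genes with the same sign was not computed. The differences with and without GH share no arrays, and across 12375 genes they correlated at r = 0.252 (0.498 over 1191 called genes), which describes genes and not replicates.

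Egr1 was lower in every knockout array without GH, with 530.2, 509.5 and 449 in KO and 1057, 673 and 715 in WT, and its interaction was 4.10 ± 0.194 (adjusted p = 5.32e-08). Rrad stood at 45.5, 136 and 116 in KO and 142, 89 and 102 in WT without GH, and its interaction was 5.25 ± 0.381 (1.14e-05). Dusp5 (3.84 ± 0.332), Nab2 (2.71 ± 0.216), Hbegf (2.23 ± 0.189), Srxn1 (2.21 ± 0.198) and Sgms2 (3.18 ± 0.271) passed in the same direction, and their genotype differences without GH lay between -0.08 and 0.11. Other rises did not pass. Fos was higher in the knockout by 1.13 without GH, and its interaction was 0.02 ± 0.308 (0.99). Serpinb1a (1.75 without GH, interaction 0.77 ± 0.264, 0.286) and Tnfaip2 (1.19, 1.15 ± 0.267, 0.0731) were higher without GH too. The interactions of Atf3 (1.78 ± 0.549, 0.252) and Socs3 (1.70 ± 0.418, 0.119) also fell short. On the lower side Klf15 (-1.42 ± 0.151), Fbxo32 (-0.99 ± 0.161), Slc7a8 (-1.38 ± 0.283) and Pnmt (-3.69 ± 0.473) passed. Pnmt without GH gave 64.4, 22.9 and 118 in KO and 23.3, 52.1 and 81.1 in WT, which overlap. Socs2 was lower in the knockout with and without GH, and the deficit was larger without it (-2.29), so that the interaction was 1.10 ± 0.227 (0.0349). For Cish the deficit without GH was -3.02 and the interaction 1.43 ± 0.633 (adjusted p = 0.478). Stat5b (-2.66 without GH), Stat5a (-1.27), 1700001O22Rik (-3.16) and Kcnf1 (-2.23) were lower without GH too, and their interactions did not pass, which does not show that the differences were equal.

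**Figure D5:**
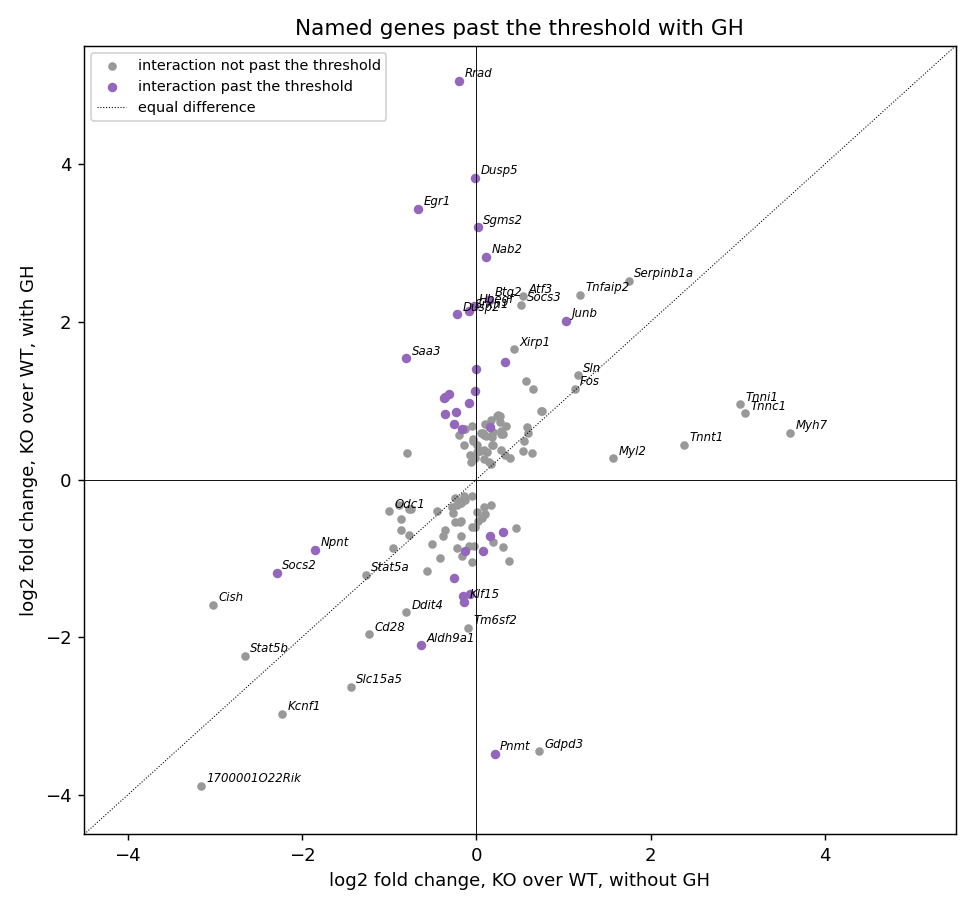
Log2 difference between knockout and wild type without GH (x axis) against that with GH (y axis) for 150 named genes past the threshold with GH; the 35 in purple also passed the interaction test, and the dotted line marks equal differences. Stat5b and 1700001O22Rik lie near that line at the lower left, while Rrad, Dusp5 and Egr1 lie high on the y axis at an x near or below 0.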

How the data were processed

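Total RNA of 12 mouse muscle samples was hybridised to Affymetrix arrays, 1 array per mouse. The authors deposited linear MAS5 signal intensity values, per the submitters' processing notes; their trimmed mean (2% off each end) is 500 on every array. Their array-level scanner files were not used here. Probe sets took 1 gene symbol (34945), several (932) or none (9160) from the platform annotation, updated through RefSeq.

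Groups followed the source labels. Log2 of signal plus 25 was fitted with limma 3.58.1 (R 4.3.3, statmod 1.5.0; trended, robust eBayes) on the 6 arrays with GH (4 residual degrees of freedom), over the 27022 of 45037 non-control probe sets whose mean was above the 40th percentile; p-values were adjusted (Benjamini-Hochberg) over these. The interaction used all 12 arrays. The fit was tested on simulated data. The simulation drew independent noise for each probe set and array, so it could not test effects shared by an array, such as RNA quality. The number of arrays limits the precision. Named genes were Stat5a, Stat5b, the 12 largest rises and falls, all GH signalling and STAT5 target genes tested, and up to 6 per other list by smallest p past the threshold (up to 2 where none passed). The comparison and the lists (666 genes, 623 on the array) were chosen with earlier results of these data known. Alternatives changed the constant, filter, normalization, probe set choice, eBayes setting, arrays in the fit and the actin covariate, and left out each array.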

Additional observations from a re-analysis of the deposited data

Results flagged for a closer look

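For 35 named genes the knockout difference with GH departed from that without GH in the interaction test of limma (adjusted p under 0.05). Most named genes were chosen by the difference with GH, which enters these values. Each value below is the difference with GH less that without, in log2 units; adjusted p-values ran from 5.32e-08 to 0.0491. Among immediate early and ERK feedback genes the values were Egr1 4.10, Nab2 2.71, Dusp5 3.84, Dusp2 2.31, Btg2 2.13, Junb 0.98, Gadd45a 1.14, Klf5 1.16, Klf6 0.96 and Hbegf 2.23. For RGK, stretch and muscle genes they were Rrad 5.25, Ankrd1 1.41, Cavin4 0.51 and Myod1 1.41. For stress, acute phase and signalling genes they were Srxn1 2.21, Txnrd1 0.81, Saa3 2.34 and Ptpn2 1.40, and for metabolic, transport and polyamine genes Sgms2 3.18, Fbp2 1.41, Slc2a1 1.06, Azin1 1.09 and Slc38a2 1.19.

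Genes lower in the knockout with GH had values of Pnmt -3.69, Klf15 -1.42, Fbxo32 -0.99, Slc7a8 -1.38, Aldh9a1 -1.47, Ciart -1.33, Nr1d1 -0.88, Nr4a1 -0.99, Pim3 -0.78 and Cldn5 -0.97, all further down with GH. For Socs2 and Npnt, which were lower in the knockout in both states, the values were positive, Socs2 1.10 and Npnt 0.96: the deficit was smaller with GH. Without GH the groups contained arrays with larger spread, and the actin ratio was 0.805 to 0.864 in the arrays without GH and 0.887 to 1.007 in those with it. The poly-A control signals were 129 to 167.5 without GH and 442.3 to 467.2 with it, and the median signals 79.3 to 92.4 and 97.4 to 101.8. These measures do not overlap between the arrays with and without GH, so their part in these values cannot be told apart from that of GH.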

How the results depend on the processing

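The counts of genes past the threshold depended on how the spread was estimated. With all 12 arrays in the fit, whose groups without GH vary more, 597 probe sets were higher and 516 lower (295 and 247 genes). With eBayes neither trended nor robust, the counts were 726 and 673 probe sets (335 and 287 genes), and with the actin 3′ to 5′ ratio as a covariate, which does not overlap between the genotypes, 154 and 120 (93 and 55 genes). Leaving out 1 array gave 729 to 1345 probe sets higher and 751 to 1261 lower, or 376 to 703 genes higher and 363 to 620 lower, lowest without knockout array 2 and highest without wild-type array 1. The interaction gave 22 genes downward with median centring. Leaving out 1 of the 12 arrays gave 81 to 175 probe sets upward and 38 to 85 downward, or 50 to 88 genes upward and 15 to 44 downward. The constant (5 or 100), the filter, quantile normalization, median centring and the probe set rule kept the other counts within 1.5 times. Of the called probe sets, 47.9% were higher, against 49.5% after quantile normalization and 51.0% after median centring.

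Of 153 named genes past the threshold, 54 stayed past it under every alternative that gave a value, 33 higher and 21 lower; they include Rrad, Dusp5, Egr1, Nab2, Atf3, Btg2, Socs3, Hbegf, Junb, Klf15, Ddit4, Fbxo32, Socs2, Pnmt and Stat5b. Klf12 reversed, to -0.062, without probe sets that may bind several transcripts, where it was read by another of its probe sets. Leaving out single arrays ended these calls among named genes. The calls lost without knockout array 1 were those of Acvr1b, Alas2, Bcl2l1, Bhlhe40, Col4a1, Dok7, Dpt, Fgl2, Flt1, Lrp4, Mlxipl, Mt2, Mylk, Slc38a9, Slc7a5, Smad3, Smad7, Spred2 and Thbs1. The calls lost without knockout array 2 were those of Acacb, Alas2, Bcl2l1, Bhlhe40, Bnip3, Col4a1, Dpt, Errfi1, Flt1, Lrp4, Mbp, Mlxipl, Mt2, Pnpla3, Slc38a9, Slc7a5, Smad3, Smad7 and Spred2. The calls lost without knockout array 3 were those of Acacb, Acvr1b, Alas2, Bcl2l1, Bhlhe40, Col4a1, Dok7, Dpt, Errfi1, Flt1, Lrp4, Mbp, Mlxipl, Mt2, Pnpla3, Slc38a9, Slc7a5, Smad3, Smad7, Spred2 and Thbs1. The calls lost without wild-type array 1 were those of Dok7, Flt1, Lrp4, Pnpla3, Slc7a5 and Spred2. The calls lost without wild-type array 2 were those of Acvr1b, Alas2, Bcl2l1, Bhlhe40, Col4a1, Errfi1, Fgl2, Flt1, Lrp4, Mbp, Mlxipl, Mylk, Pnpla3, Slc38a9, Slc7a5, Smad3, Spred2 and Thbs1. The calls lost without wild-type array 3 were those of Alas2, Bcl2l1, Bhlhe40, Col4a1, Dpt, Errfi1, Mbp, Mlxipl, Mt2, Mylk, Smad7 and Thbs1. No paired analysis was possible because the animal numbers in the titles differ between groups. Dim signal limits Dusp5, Sgms2, 1700001O22Rik, Slc15a5, Cd28, Tm6sf2, Csf3, 5730419F03Rik, Ttr and Apoa1, whose lower groups have means under the filter level of 56.2.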

Other observations

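Genes in no list, chosen after their values were seen, also moved by large amounts. Among growth-associated and extracellular genes, Tgfb2, a transforming growth factor ligand, gave 1706, 1913 and 1773 in KO and 657, 618 and 657 in WT. It rose by 1.44 ± 0.0701 (9.35e-07, limma). Tgfb2 and the other rises of this paragraph stayed past the threshold with all arrays of the series in the fit and with the actin covariate. They also did so with no filter, with eBayes neither trended nor robust and without any single array with GH. The other alternatives were not checked for these genes. Pdgfb, a platelet-derived growth factor chain, gave 1501, 1469.8 and 1439 in KO and 503, 588 and 619.6 in WT and rose by 1.33 ± 0.0853. Phlda1 (1.77 ± 0.0657), Sox4 (1.57 ± 0.0765), Thbd, the thrombin receptor thrombomodulin (1.41 ± 0.0588), the protease Adamts1 (1.44 ± 0.0628), the mechanosensitive channel Piezo1 (1.33 ± 0.0554) and the pro-apoptotic Bcl2l11 (1.46 ± 0.11) rose too.

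On the lower side, Mss51, a muscle mitochondrial gene, gave 10089.5, 9434 and 9285 in KO and 22584, 19064 and 20690.1 in WT and fell by 1.11 ± 0.0702 (6.08e-06). Bdh1, which uses ketone bodies, gave 888, 893 and 836 in KO and 2148, 2038 and 1954 in WT and fell by 1.21 ± 0.0641, Acsl3, an acyl-CoA synthetase, fell by 1.28 ± 0.118, the arrestin-domain gene Arrdc2 by 1.40 ± 0.0663 and the folliculin gene Flcn by 1.04 ± 0.0869. Among 4340 probe sets tested with no symbol or several, 225 were higher and 154 lower. Over all 27022 probe sets tested the shares were 4.42% higher and 4.81% lower.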
